A study of Mus musculus with 10 samples.

Results

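Bile acids circulate between liver and gut, and hepatocytes keep that circulation going with carriers on opposite faces of the cell. Carriers on the sinusoidal face, which meets the blood, take up bile acids and other organic anions. Carriers on the canalicular face export bile acids, phospholipid and conjugates into bile, and efflux carriers on the basolateral face return organic anions to blood. The 9 genes described here cover these 3 functions: Slc10a1, Slco1b2 and Slco1a4 for uptake, Abcb11, Abcb4, Abcc2 and the flippase Atp8b1 at the canaliculus, and Abcc3 and Abcc4 for basolateral efflux. They were taken by symbol, with every probe set that the platform annotation assigns to that symbol alone. This gave 14 probe sets of 34945 with a single symbol, and 9 genes of 18193.

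Liver RNA of 10 mice was measured on Affymetrix 430 2.0 arrays, 1 mouse per array. All mice are labelled ApoE-/- and all received an adenovirus. In 5 control mice (replicates 11 to 15) the virus expressed GFP, a fluorescent protein, and in the other 5 (replicates 16 to 20) it expressed a dominant negative form of cJun, written dn-cJun below. cJun forms part of AP-1, a dimeric transcription factor. Age, sex, viral promoter, cells infected and time of sampling are not stated in these sources.

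The arrays had median deposited intensities of 85.3 to 127, and after normalization they correlated pairwise at 0.948 to 0.965. Apoe had a log2 signal between 9.42 and 10.94 in controls but between 15.31 and 15.82 in the other group, which goes against the ApoE-/- label of the second group, so these arrays are called "labelled dn-cJun". The cause was not tested. Apoe signal separated the groups fully, so in any gene a difference tied to Apoe cannot be told apart from one tied to dn-cJun. Jun did not pass the test (log2 difference -0.07, SE 0.17, limma adjusted p = 0.890). Xist, an RNA of the inactive X chromosome, was at 13.63 and 13.71 in controls 15 and 14 and at 5.90 to 6.72 in the other 8 arrays, and the Y-linked Eif2s3y, Kdm5d and Uty were lower in both of these arrays than in any other. These signals are those of female mice in controls 14 and 15 and of male mice in the other 8 arrays. Sex was thus unbalanced between the groups, and its part in the differences was not tested. Differences of the carriers are therefore given with and without controls 14 and 15. Of 8 hepatocyte markers 0 passed the threshold, with all 8 differences positive. The largest was that of Ass1, at 1.12 (limma unadjusted p = 0.0160, adjusted p = 0.220). Tat was next, at 0.79 (limma unadjusted p = 0.0258, adjusted p = 0.262). Alb lay between 15.66 and 15.85 on every array, while Ass1 was dimmer, with group means of 8.35 and 9.47.

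None of the 9 carriers passed the test between the groups. In RNA from whole liver, fewer cells of a type and less RNA per cell cannot be told apart. At an adjusted p under 0.05 (limma, Benjamini-Hochberg adjustment over 12736 genes) 0 of 9 were called, where 0.777% of all genes were, and at an unadjusted p under 0.05 there were 2 of 9, where the share of all genes was 14.9%. In 0 of 9 genes were the groups free of overlap, against 4.22% of all genes. At the level of single probe sets 0 of 14 were called, against 0.429% of all probe sets with a single symbol. An unadjusted p under 0.05 was found in 2 of 14, against 11.2%, and groups without overlap in 0 of 14, against 2.8%. The difference was positive in 2 of 9 carriers, against 50.3% of all genes, and negative in the other 7. The median log2 difference of the carriers was -0.11 and that of all genes 0.0015. Without controls 14 and 15 the carriers' median was -0.04, with 3 of 9 higher and again 0 of 9 called, where 0.408% of all genes were. All differences are on the scale of log2(intensity + 16), arrays labelled dn-cJun minus control.

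A p above the threshold does not show that a carrier was the same in both groups, so the intervals matter. In 7 of the 9 genes the 95% interval of the fold lay within 1.5-fold in either direction. The others were Slco1a4, with an interval of 0.421 to 1.35, and Abcc4, with 0.400 to 1.15. Without controls 14 and 15 it was 6 of 9: the interval of Abcc2 reached 1.52, and those of Slco1a4 and Abcc4 became 0.657 to 1.86 and 0.613 to 1.54.

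**Figure D1:**
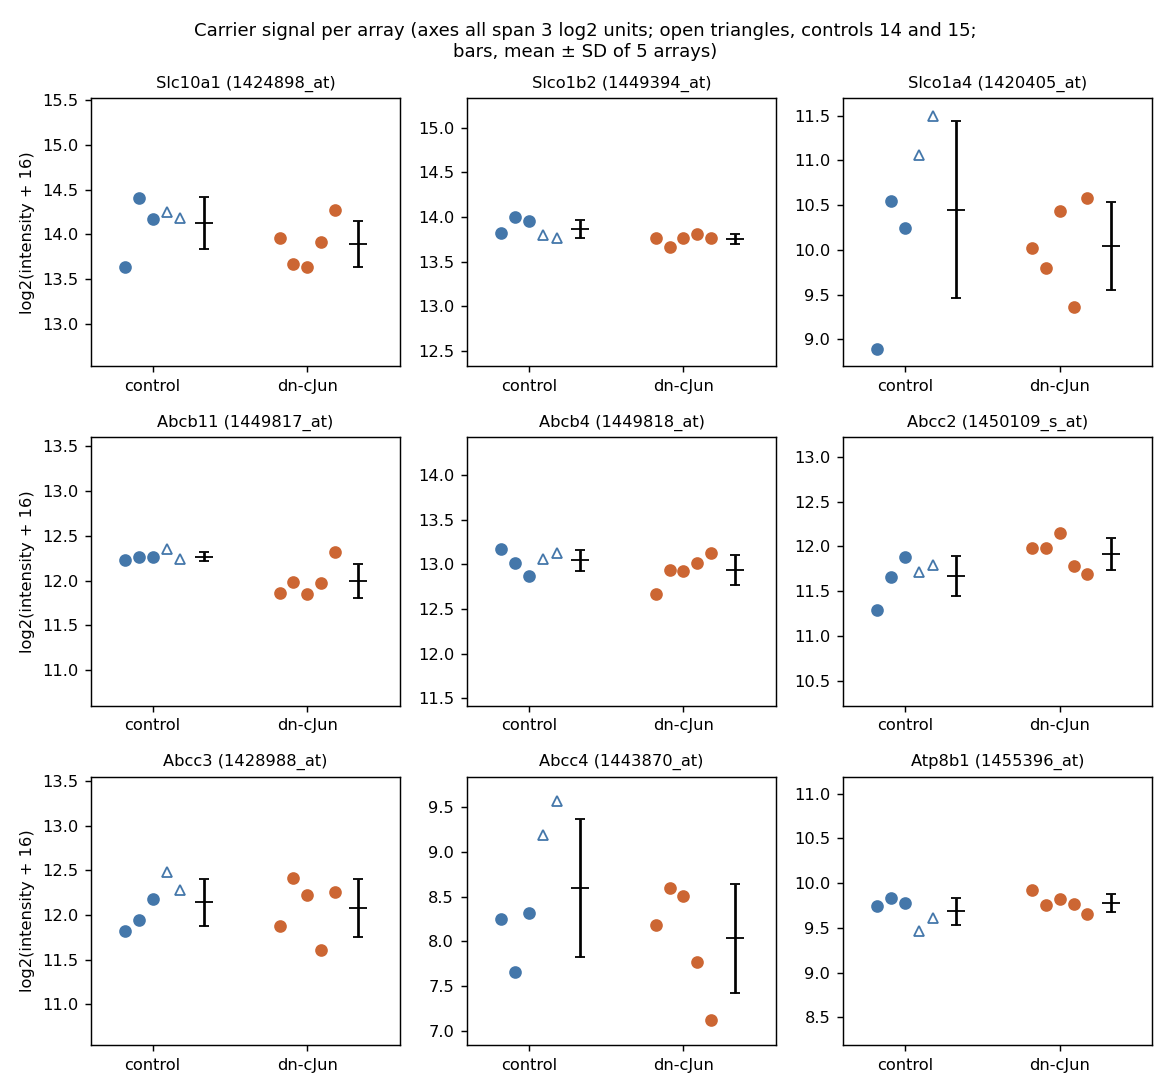
Log2(intensity + 16) of the representative probe set of each carrier in every array (vertical axes, each spanning 3 log2 units), by group, with the mean and SD of 5 arrays as bars and controls 14 and 15 as open triangles. The groups overlap in all 9 panels. The spread is widest in Slco1a4 and Abcc4, where the open triangles are the highest points.

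Slc10a1 encodes the sodium-dependent carrier that takes up most conjugated bile acids from portal blood. Its log2 signal in controls 11 to 15 was 13.64, 14.41, 14.17, 14.25 and 14.19. In the arrays labelled dn-cJun, 16 to 20, it was 13.96, 13.67, 13.63, 13.92 and 14.27. The groups overlapped at both ends: control 11 lay as low as dn-cJun 17 and 18, and dn-cJun 20 lay above 4 of the controls. The means were 14.13 ± 0.29 (SD, n = 5) and 13.89 ± 0.26 (SD, n = 5), a log2 difference of -0.24 with an interval of -0.55 to 0.07 (SE 0.14, limma adjusted p = 0.461). The second probe set followed the first across the arrays (Pearson r = 0.967 over 10 arrays) and gave -0.13. Without control 11, whose extraction entry names Trizol where those of the other 9 name Affymetrix, the first probe set gave -0.37 (limma adjusted p = 0.204). Without controls 14 and 15 it gave -0.18 (limma adjusted p = 0.688).

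Slco1b2 encodes a sodium-independent carrier of organic anions, including bilirubin and unconjugated bile acids, that is largely restricted to hepatocytes. It varied least of the uptake carriers. The log2 signal was 13.82, 13.996, 13.95, 13.80 and 13.76 in controls 11 to 15, and 13.77, 13.66, 13.77, 13.81 and 13.76 in dn-cJun 16 to 20. Controls 11, 12 and 13 lay above every array of the other group, control 11 by a narrow margin, and controls 14 and 15 lay among them. The difference was -0.11 with an interval of -0.24 to 0.02 (SE 0.06, limma adjusted p = 0.420). Without controls 14 and 15 it was -0.17 (interval -0.31 to -0.02, unadjusted p = 0.0299, limma adjusted p = 0.301), and the remaining 3 controls then lay above all 5 other arrays, a separation found in 9.59% of genes with these arrays.

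Slco1b2 has 5 probe sets, and they did not follow each other closely. The bright ones 1452494_s_at and 1427826_a_at gave differences of -0.04 and 0.02 and correlated at 0.787 over the 10 arrays, but correlated with the representative at only 0.455 and 0.264. The probe set 1427825_at, near the middle of the array's range, gave 0.08 with an interval of -0.67 to 0.83. The dimmest, 1452569_at, lay below the level filter and gave -0.13 with an interval of -1.03 to 0.77. The transcripts read by each probe set were not looked up.

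Slco1a4 encodes a related organic anion carrier that takes up bile acids, steroid conjugates and drugs such as digoxin. It was the most variable uptake carrier between the mice. In controls 11 to 15 its log2 signal was 8.90, 10.55, 10.24, 11.06 and 11.49, which spans the lowest and the highest value of all 10 arrays. In dn-cJun 16 to 20 it was 10.02, 9.80, 10.44, 9.36 and 10.57, all within the range of the controls. The difference was -0.41 (interval -1.25 to 0.43, SE 0.39, limma adjusted p = 0.673). It turned to 0.14 (SE 0.34, limma adjusted p = 0.895) without controls 14 and 15, which had the highest values. Without control 11 alone it was -0.80 (limma adjusted p = 0.232).

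Slco1a1, a carrier of the same family on the list of male-biased liver genes, ran the other way in the same arrays. It was at 9.72 and 9.42 in controls 14 and 15 and at 11.08 to 12.01 in the other 8. Its group difference was 0.88 (limma adjusted p = 0.342, SE 0.41), but 0.08 (SE 0.19) without controls 14 and 15. The other genes of that list did not all do the same. Of 9 tested, 8 had a positive difference over all arrays, with a median of 0.63. Without controls 14 and 15 the list median was -0.31, with 3 of 9 positive and 1 called lower. That gene was Elovl3, at 0.41 over all arrays and at -1.44 (SE 0.25, limma adjusted p = 0.0343) without these controls.

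Abcb11, the bile salt export pump, moves bile acids across the canalicular membrane and sets the pace of bile acid secretion. It had the smallest p of the 9 carriers. Its log2 signal in controls 11 to 15 was 12.23, 12.26, 12.26, 12.35 and 12.24, an SD of 0.05. In dn-cJun 16 to 20 it was 11.86, 11.99, 11.85, 11.97 and 12.32. Thus 4 of these 5 arrays lay below every control, and dn-cJun 20 lay among the controls. The means were 12.27 ± 0.05 (SD, n = 5) and 11.998 ± 0.19 (SD, n = 5), a log2 difference of -0.27 or a fold of 0.829 with an interval of 0.729 to 0.943 (SE 0.09, unadjusted p = 0.00765, limma adjusted p = 0.160). By unadjusted p it was gene 609 of 12736. Without dn-cJun 20 the difference was -0.35 (limma adjusted p = 0.0600). On the deposited scale, on which all genes had a median of -0.19, the difference was -0.46 and passed (limma adjusted p = 0.0259). Abcb11 has 1 probe set on the array.

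Abcc2 encodes the canalicular export pump for bilirubin glucuronides, glutathione and other conjugates. It had the next smallest p and the opposite sign. Its log2 signal was 11.29, 11.65, 11.88, 11.71 and 11.79 in controls 11 to 15, and 11.98, 11.98, 12.15, 11.78 and 11.69 in dn-cJun 16 to 20. The first 3 of the arrays labelled dn-cJun lay above all controls, the last 2 lay among them, and control 11 was the lowest of all. The difference was 0.25, a fold of 1.19 with an interval of 1.003 to 1.41 (SE 0.11, unadjusted p = 0.0465, limma adjusted p = 0.326). Without control 11 it was 0.16 (limma adjusted p = 0.5001), and without controls 14 and 15 it was 0.31 (limma adjusted p = 0.342). On the deposited scale the difference of Abcc2 was 0.06 (SE 0.12, limma adjusted p = 0.753). Its only probe set has a name that ends in _s_at, which marks a set that can read more than 1 transcript.

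The promoters of Abcb11 and Abcc2 are shown because these 2 carriers had the smallest p and opposite signs, and because their signals ran against each other across the arrays (Pearson r = -0.66, and -0.44 with each gene centred within its group). Each is the 250 bases before the RefSeq start on GRCm38.p6, 5′ to 3′ on the strand of the gene, with motif matches in capitals. Abcb11 lies on the minus strand of chromosome 2 (chr2:69342617-69342866) and Abcc2 on the plus strand of chromosome 19 (chr19:43782058-43782307).
Abcb11: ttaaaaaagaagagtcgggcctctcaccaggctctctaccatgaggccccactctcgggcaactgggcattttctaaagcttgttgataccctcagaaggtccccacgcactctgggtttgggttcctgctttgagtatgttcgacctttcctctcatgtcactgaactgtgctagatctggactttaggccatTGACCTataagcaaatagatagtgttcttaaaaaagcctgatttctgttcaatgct
Abcc2: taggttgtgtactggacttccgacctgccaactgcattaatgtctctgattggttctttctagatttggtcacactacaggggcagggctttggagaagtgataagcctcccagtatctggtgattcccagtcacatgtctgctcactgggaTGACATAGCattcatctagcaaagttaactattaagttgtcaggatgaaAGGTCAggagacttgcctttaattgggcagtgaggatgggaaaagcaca
The capitals in Abcb11 mark the reverse complement of AGGTCA, a single repeat of the element that nuclear receptors bind, at bases -56 to -51 from the start. Those in Abcc2 mark TGACNNNGC, the core of the antioxidant response element, at -98 to -90 and AGGTCA at -49 to -44. Both strands were searched.

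RefSeq windows were found for 7 of the 9 carriers, 9 windows in all. The AP-1 letters TGANTCA were in 0 of these 9 windows and in 6.75% of 32851 promoters of the same length. AGGTCA was in 4 of 9 against 14% of all, TGACNNNGC in 3 of 9 against 10.2%, and TTGCNNAA, written here for C/EBP factors, in 2 of 9 against 9.56%. TGACGTCA, written for the cyclic AMP response element, was in 0 of 9, against 1.55% of all. The windows with TGACNNNGC were that of Abcc2 and both windows of Abcc4, so this count repeats a gene. TGACNNNGC can overlap TGANTCA. A match in this window is a description and not a binding site, and motifs further away were not searched.

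Abcb4 encodes the floppase that delivers phosphatidylcholine to bile. Its log2 signal was 13.17, 13.01, 12.87, 13.06 and 13.13 in controls 11 to 15, and 12.67, 12.94, 12.93, 13.01 and 13.13 in dn-cJun 16 to 20. Only dn-cJun 16 lay outside the range of the controls. The difference was -0.11, a fold of 0.924 with an interval of 0.812 to 1.05 (SE 0.09, limma adjusted p = 0.590), and without dn-cJun 16 it was -0.05.

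Atp8b1 encodes a flippase that returns phosphatidylserine to the inner leaflet of the canalicular membrane. Its log2 signal was 9.74, 9.83, 9.78, 9.46 and 9.61 in controls 11 to 15, and 9.92, 9.75, 9.82, 9.76 and 9.65 in dn-cJun 16 to 20. Controls 14 and 15 were the lowest of the 10 arrays, and the other controls lay among the arrays labelled dn-cJun. The difference was 0.10 with an interval of -0.10 to 0.30 (SE 0.09, limma adjusted p = 0.673). It was -0.00094 without controls 14 and 15 and -0.11 with the values as deposited.

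Abcc3 encodes a basolateral pump that returns bile acids and glucuronides to sinusoidal blood. Its log2 signal was 11.82, 11.94, 12.18, 12.48 and 12.28 in controls 11 to 15, and 11.88, 12.41, 12.23, 11.61 and 12.26 in dn-cJun 16 to 20. High and low values stood in both groups. The difference was -0.06, a fold of 0.958 with an interval of 0.760 to 1.21 (SE 0.16, limma adjusted p = 0.890). When controls 14 and 15 were dropped it was 0.10.

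Abcc4 encodes a basolateral pump that exports bile acids together with glutathione, and also cyclic nucleotides. Its log2 signal was 8.25, 7.66, 8.32, 9.19 and 9.57 in controls 11 to 15. In dn-cJun 16 to 20 it was 8.19, 8.60, 8.50, 7.77 and 7.12. Controls 14 and 15 were the highest of all arrays and dn-cJun 20 the lowest, while the rest were mixed. The difference was the largest of the 9 in size and was not called, at -0.56 (SE 0.35, interval -1.32 to 0.20, limma adjusted p = 0.488). Without controls 14 and 15 it was -0.04 (SE 0.30, interval -0.71 to 0.62, limma adjusted p = 0.969).

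**Figure D2:**
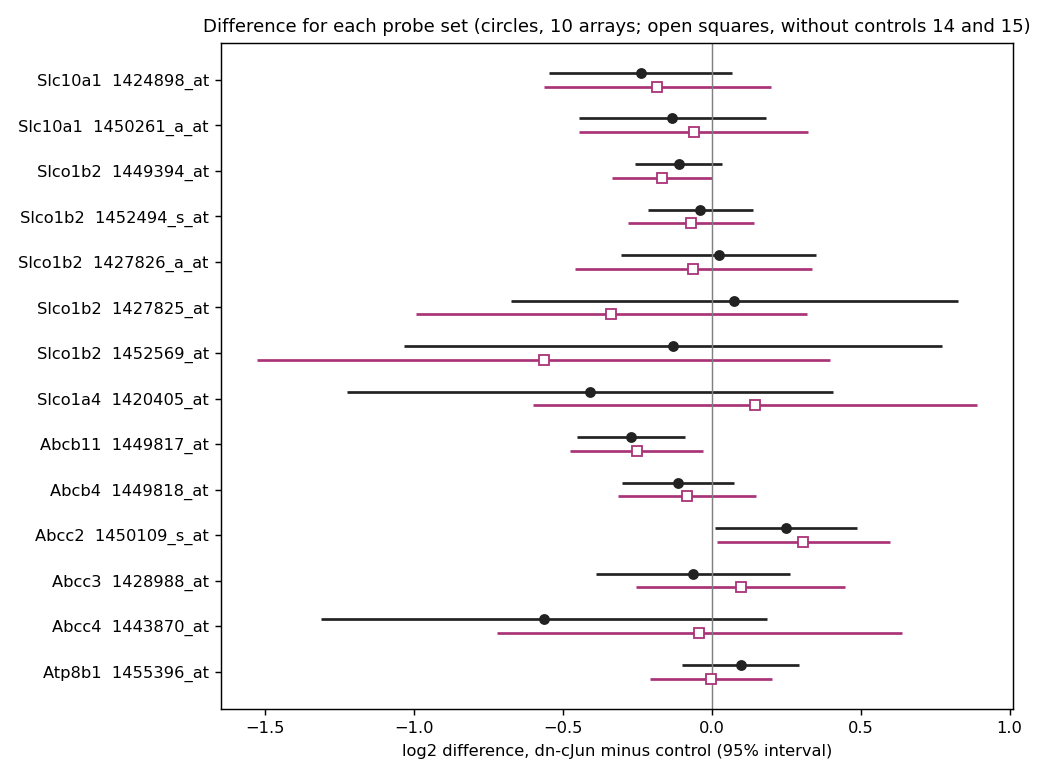
Log2 difference, arrays labelled dn-cJun minus control, with its 95% interval (horizontal axis) for each of the 14 probe sets, over 10 arrays (circles) and without controls 14 and 15 (open squares). The intervals of Abcb11 and Abcc2 leave out 0 before adjustment. Those of Slco1a4 and Abcc4 are wide, and their estimates shift to 0.14 and -0.04 without these controls.

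Thus 3 carriers set controls 14 and 15 apart from the other 8 arrays: Slco1a4 and Abcc4 were higher in both than in any other array, and Atp8b1 was lower. Both arrays lay above all others in 6.35% of the genes tested and below all others in 5.65%. On the list of female-biased liver genes, Cyp3a44 and Prom1 had group differences of -0.87 and -0.63, which became -0.04 and 0.10 without these arrays. The third gene tested on that list, Cux2, was at -0.13 and at -0.19 without them. Of the 9 genes listed, 5 were on the array under a single symbol and 3 passed the level filter. Cyp2b9 and Cyp2b13 did not pass it. In controls 14 and 15 they were at 5.75 to 5.94 and 4.64 to 5.30, within the ranges of the arrays labelled dn-cJun (4.15 to 6.34 and 4.48 to 5.46). Within the control group, controls 14 and 15 are single arrays and no test was made.

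Across the 10 arrays the carriers followed no single pattern. Of 36 pairs, 22 had a Pearson r above 0, from -0.69 for Abcb4 with Abcc2 to 0.67 for Slc10a1 with Abcb11. Slco1a4 correlated with Abcc3 at 0.66 and Abcb11 with Abcb4 at 0.65. Atp8b1 ran against Abcb11 at -0.67 and against Abcb4 at -0.66. With each gene centred within its group, these 6 values were -0.62, 0.58, 0.66, 0.57, -0.62 and -0.60. The points share arrays and normalization, so these are descriptions.

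**Figure D3:**
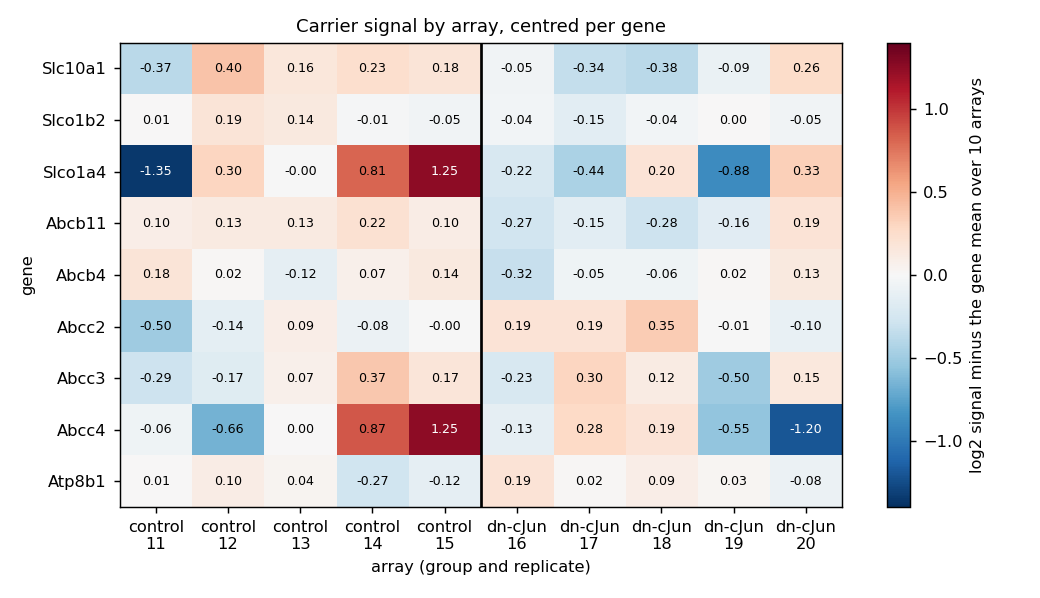
Log2 signal of each carrier (rows) in each array (columns, by group and replicate), minus that gene's mean over the 10 arrays, with the colour scale in log2 units. Slco1a4 and Abcc4 have their largest positive values in controls 14 and 15. Abcb11 is below its mean in dn-cJun 16 to 19 and above it in dn-cJun 20 and all 5 controls.

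For each carrier the most similar other gene was taken as the one with the highest Pearson r over the 10 arrays among all genes tested. These were Tsc22d4 for Slc10a1 (0.946), Rnf187 for Slco1b2 (0.939) and Itih2 for Slco1a4 (0.968). For the canalicular genes they were Rrnad1 for Abcb11 (0.921), Prmt5 for Abcb4 (0.955), Utrn for Abcc2 (0.925) and 1700066M21Rik for Atp8b1 (0.948). For the efflux pumps they were Lrat for Abcc3 (0.923) and Prpf19 for Abcc4 (0.960). Each is the highest of 12727 values over only 10 arrays.

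Among the other transporters of the liver, 23 of 26 listed genes were on the array under a single symbol and 19 passed the level filter. Of these 0 were called, with 12 higher and a median of 0.12, which was 0.19 without controls 14 and 15. Slc22a7, an organic anion transporter of the sinusoidal membrane, had the smallest p: it averaged 9.48 ± 0.25 (SD, n = 5) among controls and 9.99 ± 0.21 (SD, n = 5) among the other arrays on the log2 scale, without overlap (difference 0.51, SE 0.13, limma adjusted p = 0.0994). Abcb1b, a multidrug efflux pump, was at -0.91 (SE 0.34, limma adjusted p = 0.224), and it fell below the level filter without controls 14 and 15.

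Of the scaffold, trafficking and flippase partners of the canaliculus, 18 of 20 were tested. Of these 1 was called lower and 0 were called higher, with 11 differences positive and a median of 0.02. The gene called lower was Hax1, a mitochondrial and cortactin-binding protein known to bind Abcb11. The Hax1 signal averaged 13.56 ± 0.03 (SD, n = 5) among controls and 13.14 ± 0.19 (SD, n = 5) among arrays labelled dn-cJun (difference -0.42, SE 0.08, limma adjusted p = 0.0323). This rests on a probe set whose name ends in _x_at, which can read related sequences, and the other Hax1 probe set gave -0.10. It stayed called in 2 of the 10 fits that each drop 1 array. Without controls 14 and 15 the difference was -0.44 with a larger SE of 0.10, and the call was lost (limma adjusted p = 0.0751).

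Regulators of the carriers had 1 member called higher and 0 called lower among 20 tested, with 14 differences positive and a median of 0.11. Without controls 14 and 15 there were 0 called and the median was 0.17. The smallest p in that fit was that of Nr1i3, which encodes the drug receptor CAR, at 0.79 (SE 0.15, limma adjusted p = 0.0508). Over all arrays Nr1i3 was at 0.30 (SE 0.26, limma adjusted p = 0.643). Cebpb, a basic leucine zipper factor of liver, rose from 12.65 ± 0.09 (SD, n = 5) to 13.004 ± 0.08 (SD, n = 5), a difference of 0.36 (SE 0.06, limma adjusted p = 0.0274). Its second probe set gave 0.46. It stayed called in 3 of the 10 fits that each drop 1 array and was lost without controls 14 and 15 (0.35, limma adjusted p = 0.0754). Nr1h4, which encodes the bile acid receptor FXR that induces Abcb11, was at 0.11 (SE 0.08, limma adjusted p = 0.604), and its target Nr0b2, a repressor of Slc10a1, at 0.24 (SE 0.16, limma adjusted p = 0.501). These last 2 were picked for their roles after their values were seen.

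Bile acid synthesis and conjugation had 0 of 19 called, with 14 higher and a median of 0.06, against 11 higher and a median of 0.03 without controls 14 and 15. Cyp2c70, which makes the muricholic acids of mice, was at -0.34 (SE 0.07, limma adjusted p = 0.0535), with no overlap between the groups. It was called in some other fits, but in 0 of the 10 fits that each drop 1 array. After equalizing the array medians Cyp2c70 was at -0.19 (limma adjusted p = 0.539), and without controls 14 and 15 at -0.29 (limma adjusted p = 0.162). Akr1d1, the reductase of the steroid nucleus, differed by 0.26 (limma adjusted p = 0.118, SE 0.07).

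NRF2 is a transcription factor activated by oxidants that also induces Abcc3 and Abcc4. Its listed targets had 0 of 14 called, with 12 lower and a median of -0.18, or -0.10 without controls 14 and 15. Hmox1, which degrades heme, differed by -0.60 (limma adjusted p = 0.0740, SE 0.14) and Gclm, a subunit of the enzyme that starts glutathione synthesis, by -0.18 (SE 0.08, limma adjusted p = 0.333). Targets of CAR and PXR, the drug receptors that induce Slco1a4, had 1 of 8 called higher and 0 called lower. Of the 8 differences 3 were positive, with a median of -0.02. Without controls 14 and 15 there were 1 called higher and 1 called lower, with a median of -0.09. Cyp2c55, a cytochrome P450, was at -0.37 (limma adjusted p = 0.353) over all arrays and fell by 0.67 (limma adjusted p = 0.0367) without these controls. Alas1, the first enzyme of heme synthesis, rose by 0.57 (SE 0.10, limma adjusted p = 0.0228), or by 0.75 (limma adjusted p = 0.000931) when controls 14 and 15 were dropped. With 1 array left out, Alas1 kept its call in 5 of 10 fits.

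**Figure D4:**
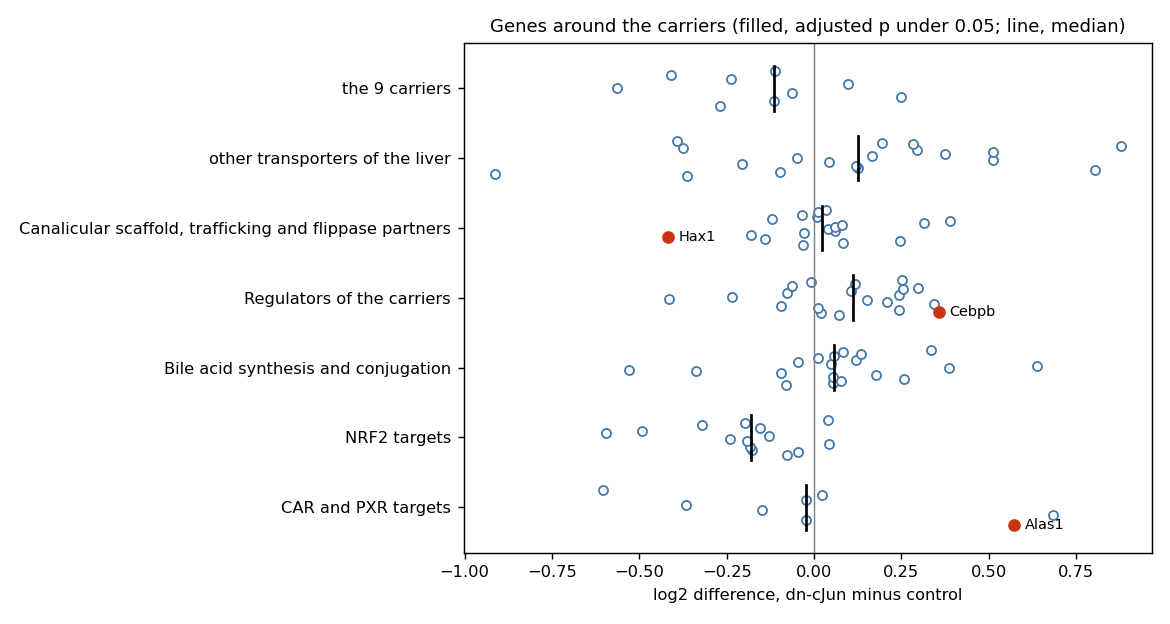
Log2 difference, arrays labelled dn-cJun minus control (horizontal axis), of each tested gene on 7 lists (rows); filled points passed limma at an adjusted p under 0.05 and black lines are list medians. Of the lists shown, only Hax1, Cebpb and Alas1 are filled, and all 9 carriers are open.

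Cholangiocytes, which line bile ducts and also carry Abcc3, were measured by few markers: 6 of 8 listed genes were on the array under a single symbol, 4 of these passed the level filter, 0 were called, and their summed signal ran from 408 to 494 among controls and from 268 to 516 among the other arrays. Krt19 was at -0.89 (SE 0.32, limma adjusted p = 0.218) and Krt7 at -0.67 (SE 0.44), while Epcam was at -0.05 (SE 0.23) and Sox9 at 0.23 (SE 0.18). Krt7 fell below the level filter without controls 14 and 15. Of 8 Kupffer cell and macrophage markers 2 fell and 6 did not pass: Lyz2, lysozyme, fell by 0.70 (limma adjusted p = 0.0294) and Cd5l, a secreted scavenger protein, by 0.57 (limma adjusted p = 0.0323). Lyz2 kept its call without controls 14 and 15 (limma adjusted p = 0.0367) and in 3 of 10 fits with 1 array left out, while Cd5l lost it without these controls (limma adjusted p = 0.105) and kept it in 1 of 10 fits. The summed signal of that list ran from 20743 to 30968 among controls and from 17638 to 20912 among the other arrays. Endothelial, stellate and lymphocyte lists had 0 of 7, 0 of 6 and 0 of 3 called. The part of these cell types in the carriers' values was not tested. The 3′ to 5′ differences of the control probe sets, a sign of RNA quality, overlapped between the groups, at -0.51 to -0.40 and -0.52 to -0.35 for Gapdh and 0.40 to 0.52 and 0.43 to 0.60 for Actb.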

How the data were processed

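The authors deposited probe set intensity on a linear scale for 10 Affymetrix 430 2.0 arrays; how it was computed is not stated in these sources. Of 45101 probe sets, 34945 carry a single symbol in the platform annotation, 932 several, 9160 none used here, and 64 are controls, dropped after normalization. Values were taken as log2(intensity + 16). Their array medians spanned 0.50, over a limit of 0.1, so arrays were quantile normalized. The brightest probe set stood for a gene, and a gene had to reach the 40th percentile of probe set means, as 12736 did. All 9 carriers and 13 of their 14 probe sets did. Probe sets were also fitted singly, with no such minimum.

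Groups were compared with limma 3.58.1 in R 4.3.3 (lmFit, eBayes with intensity trend); p-values are two-sided and adjusted by Benjamini-Hochberg over all genes, or over all probe sets with 1 symbol. Each array is a separate mouse per the labels. Promoter windows are RefSeq's, on GRCm38.p6. Precision is limited by the number of arrays.

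Carriers and gene lists were chosen with earlier results of these data known. Named are all carriers, the gene most correlated with each, and, of each pathway list, the members past the threshold or the 2 with the smallest p. Alternatives changed the scaling (as deposited, or medians equalized), the pseudocount (1, 64), the minimum level (none, 60th percentile), the handling of probe sets (mean per gene; no _x_at or _s_at), eBayes (no trend; robust), array weights, the threshold (0.1), and the arrays (each dropped in turn; controls 14 and 15 dropped).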

Additional observations from a re-analysis of the deposited data

Results flagged for a closer look

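Among the 14 probe sets of the carriers in 2 groups, 28 sets of 5 values, 3 held an array whose gap to the nearest other array was more than 0.71 of the group's range; chance gives such a gap in about 1 in 20 groups. The second Slc10a1 probe set was at 13.14 in control 11, where the other controls were at 13.77 to 13.98. Abcb11 was at 12.35 in control 14, where the other controls were at 12.23 to 12.26, so the gap is small in size. Abcb11 was at 12.32 in dn-cJun 20, where the other arrays of that group were at 11.85 to 11.99. Without dn-cJun 20 the difference of Abcb11 was -0.35 (limma adjusted p = 0.0600).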

How the results depend on the processing

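No carrier was called at the gene level or as a probe set under any alternative tried except the values as deposited, where 1 of 9 genes and 1 of 14 probe sets passed, both Abcb11 (-0.46, limma adjusted p = 0.0259 as a gene and 0.0357 as a probe set) while the median of all genes was -0.19. With 1 array left out, 0 carriers were called in each of the 10 fits. The number of genes called in all, 99, was less stable: 490 on the deposited scale, 65 after equalizing the array medians, 9 without the intensity trend, 52 without controls 14 and 15, 44 with the mean of probe sets, 250 at an adjusted p of 0.1, and 13 to 199 with 1 array left out (without dn-cJun 17 and without control 12). Direction turned without controls 14 and 15 in Slco1a4 (0.14), Abcc3 (0.10), Atp8b1 (-0.00094) and the Slco1b2 probe sets 1427825_at (-0.34) and 1427826_a_at (-0.061), and with the values as deposited in Atp8b1 (-0.11), 1427825_at (-0.076) and 1427826_a_at (-0.14). With 1 array left out Abcc3 ranged from -0.15 to 0.055, 1427825_at from -0.24 to 0.22, 1427826_a_at from -0.059 to 0.16, 1452494_s_at from -0.080 to 0.0058 and 1452569_at from -0.41 to 0.19. The other carriers kept their direction in every fit that gave a value; Abcc2 has none without _s_at probe sets. The causes were not tested. No paired analysis was possible because the replicate numbers do not repeat between the groups. Differences smaller than the intervals given for each carrier cannot be shown with 5 arrays a group, and detection calls were not used here, so the dim Slco1b2 probe sets may lie near background.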
